A study of Mus musculus with 6 samples.

Results

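Embryonic cone precursor cells were sought in single-cell RNA-seq of the mouse neurosensory retina at embryonic day 14 (E14) and embryonic day 16 (E16). The cells were selected by their own transcripts, so the genes of the selection rule are a description and not a finding. A cell was selected on at least 1 unique molecular identifier (UMI, 1 counted RNA molecule) of 3 or more of 8 cone genes (*Thrb*, *Rxrg*, *Gngt2*, *Opn1sw*, *Gnat2*, *Pde6h*, *Cngb3* and *Crx*), of which 1 had to be *Thrb*, *Rxrg* or *Gngt2*. It also had to hold 0 UMIs of *Nr2e3* (rod), *Tfap2b* (amacrine and horizontal), *Pou4f2* (ganglion) and *Mki67* (dividing cell). The rule took 480 of the 18267 kept cells of both embryonic libraries, of 57690 kept cells in the whole series. Both groups were wild type C57BL/6J retinas, pooled over several retinas per age, dissociated with papain and sorted for live cells by the absence of DAPI. Each age was 1 library, so age and library cannot be told apart, and no test was made between the ages or between selected and other cells. Intervals are exact 95% intervals and cover counting error only.

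Cones are the photoreceptors of daylight and color vision. They are among the first neurons to leave the cell cycle in the mouse retina, and arise from dividing progenitors through a precursor that expresses *Otx2* and then *Crx*. *Thrb* (thyroid hormone receptor beta) and *Rxrg* (retinoid X receptor gamma) mark this lineage early and later shape which opsin a cone makes, long before outer segments and ribbon synapses form.

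At E14 the rule selected 380 of 15553 kept cells (2.44%, interval 2.21% to 2.70%), and at E16 it selected 100 of 2714 (3.68%, 3.01% to 4.46%). The selected cells had a median of 2818.5 UMIs at E14, against 5440 in the other kept cells, and of 8192 at E16, against 7428.5. The lowest depth of a kept cell was 500 UMIs at E14 and 4566 at E16. The E16 library was counted on an older gene annotation, and comparisons used the 27040 gene identifiers in both. It also differed from E14 in where cone genes were found. At E14, 313 kept cells (2.01%) met the cone part of the rule but held an excluding gene, and at E16 766 cells (28.2%) did, with a median of 20541.5 UMIs. *Mki67* was the excluding gene in 697 of the 866 E16 cells that met the cone part, and in 262 of 693 at E14. P3 replicate 2, the other library on the older annotation, was alike in this, with *Mki67* in 802 of 1321 such cells against 147 of 1418 in P3 replicate 1. The kept cells of the 2 libraries had 1 cell barcode in common.

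Among the rule genes, *Gngt2* (the gamma subunit of cone transducin, chr11:95837216-95845734 in GRCm38) and *Thrb* (chr14:17660261-18038090) carried most selections. *Gngt2* was found in 90.3% of the selected cells at E14 and 96.0% at E16, at 1011 CPM (UMIs of the gene per 1000000 UMIs of the group; 961 to 1064) and 697 CPM (646 to 751). *Thrb* was found in 90.0% and 76.0%, at 626 CPM (586 to 668) and 189 CPM (163 to 218). The levels of both genes in selected cells were thus lower at E16, while in the other kept cells they were higher at E16, by 24.8 against 237 CPM for *Gngt2* and 24.1 against 49.9 CPM for *Thrb*. *Crx*, the homeobox factor that drives photoreceptor genes (chr7:15865947-15879968), was found in 71.8% of the selected cells at E14 and 74.0% at E16, and *Rxrg* (chr1:167598384-167639623) in 39.7% and 41.0%. A selected cell held a median of 3 and at most 17 UMIs of *Gngt2* at E14, and a median of 5 and at most 20 at E16. The median was 2 and 1 UMIs for *Thrb*, with at most 13 and 8. *Cngb3*, the beta subunit of the cone cyclic nucleotide-gated channel, was found in 43.7% and 36.0%, and *Gnat2*, the alpha subunit of cone transducin, in 25.8% and 39.0%.

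At E14 *Opn1sw* and *Pde6h* were near 0. *Opn1sw*, the short-wavelength opsin (chr6:29376671-29388468), had 2 UMIs in all 380 E14 cells (1.36 CPM, 0.164 to 4.90) and 68 UMIs in 23 of the 100 E16 cells (69.1 CPM, 53.6 to 87.6), with at most 14 UMIs in a cell. *Pde6h*, an inhibitory subunit of cone phosphodiesterase, had 3 UMIs in the E14 cells and 18 UMIs in the E16 cells (18.3 CPM). Both were also more frequent in the other kept cells of E16, where *Opn1sw* stood at 10.4 CPM against 0.131 CPM at E14. Of the 68 *Opn1sw* UMIs at E16, 37 lay in selected cells outside the main E16 cluster (given after the gene lists), as did 11 of the 18 *Pde6h* UMIs.

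Cells with *Pou4f2* but no *Tfap2b* or *Mki67* UMI, which as ganglion cells should lack most cone transcripts, give the background of these shares. Their median depth was 5801 UMIs at E14 and 5785.5 at E16. *Gngt2* was found in 2.61% of them at E14 and 12.4% at E16, *Thrb* in 8.61% and 4.14%, and *Crx* in 2.18% and 5.53%. *Rxrg* gives no background in these cells, since it was found in 12.5% of them at E14 and 38.1% at E16, above its share in all other kept cells (5.8% and 30.7%). Its share in the E16 selected cells (41.0%, 31.3% to 51.3%) overlapped the share in the *Pou4f2* cells. Cells with *Mki67* but no *Pou4f2* or *Tfap2b* UMI differed most between the libraries, with *Gngt2* in 6.60% at E14 and 69.6% at E16 and *Otx2* in 24.3% and 77.6%, at median depths of 6527 and 11218 UMIs.

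**Figure D1:**
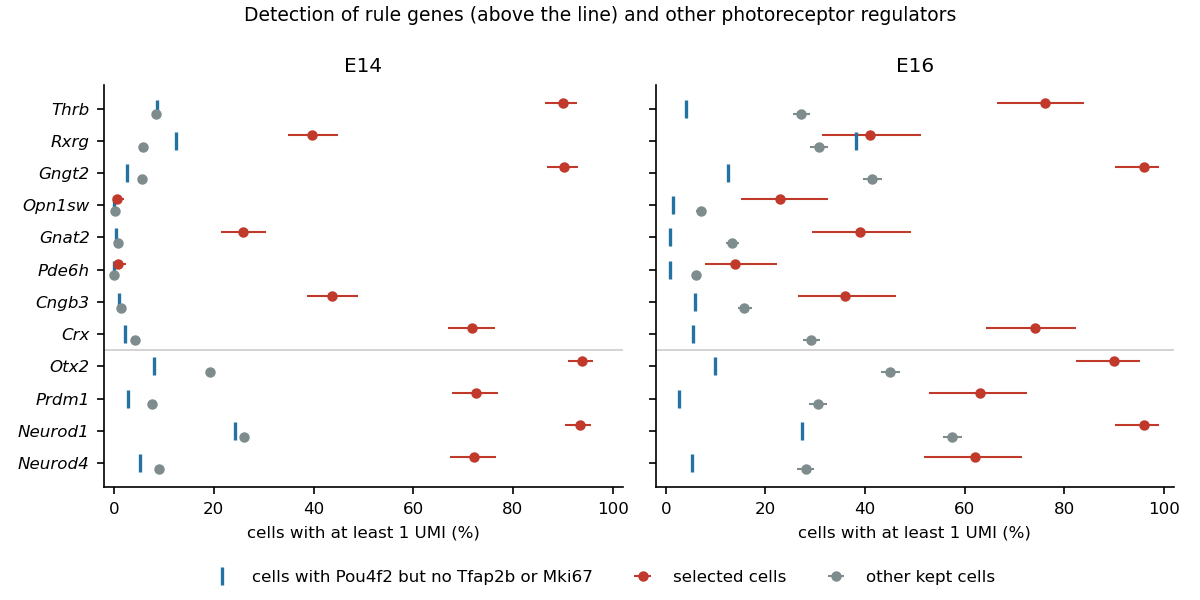
Percentage of cells with at least 1 UMI of each gene (x axis, %) at E14 (left) and E16 (right), for selected cells (red), other kept cells (gray) and cells with Pou4f2 but no Tfap2b or Mki67 UMI (blue ticks), with exact 95% intervals as bars. Red and gray points lie far apart for *Thrb*, *Gngt2* and *Crx* at E14 (90.0% against 8.44% for *Thrb*), and closer at E16 (76.0% against 27.2%).

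Most selected cells were near the threshold. At E14, 197 cells held exactly 3 rule genes, 133 held 4, 45 held 5 and 5 held 6. At E16, 38 held 3, 35 held 4, 20 held 5, 5 held 6, and 1 cell each held 7 and 8. *Thrb* with *Gngt2* and without *Rxrg* was the most frequent pattern of the 3 anchoring genes, in 191 E14 cells and 42 E16 cells, followed by all 3 together in 115 and 32. *Otx2* was detected in 94.4% of the E14 cells with exactly 3 rule genes and in 77.8% of the 216 cells just outside the rule, with exactly 2. At E16 the values were 92.1% and 48.6% (of 70 cells).

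Several photoreceptor regulators that the rule did not use were higher by 2-fold or more in the selected cells, 8 of 12 at the minimum level at E14 and 5 of 13 at E16 (10 of 13 at E16, with 1 lower, for cells with fewer than 4000 genes). *Otx2*, the factor at the head of photoreceptor specification (chr14:48657677-48673819), was found in 93.9% of the selected cells at E14 (91.1% to 96.1%), in 19.3% of the other kept cells and in 7.94% of the *Pou4f2* cells. At E16 it was found in 90.0% (82.4% to 95.1%), 45.1% and 9.95%. With every cell thinned to 2000 UMIs and shallower cells left out, which kept 319 of the E14 and all 100 of the E16 selected cells, the shares were 83.4% against 11.1% at E14 and 63.0% against 20.7% at E16. The *Otx2* level was 972 against 92.0 CPM at E14 and 466 against 192 CPM at E16. The E14 and E16 ratios were thus 10.6-fold and 2.43-fold.

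*Prdm1* (Blimp1), which holds precursors in the photoreceptor fate and away from the bipolar fate, was at 404 CPM in the E14 cells against 20.5 CPM in others (log2 ratio 4.30, 4.17 to 4.43), and at 149 against 56.2 CPM at E16 (1.41, 1.16 to 1.65). *Neurod1*, a bHLH factor of photoreceptor differentiation, was at 1125 against 126 CPM and at 588 against 249 CPM. *Neurod4*, a bHLH factor of retinal neurogenesis, was at 523 against 29.4 CPM and at 136 against 45.8 CPM. *Lhx4*, a LIM homeobox factor of cones and bipolar cells, was at 76.0 against 2.69 CPM and at 41.6 against 13.1 CPM. *Rorb*, needed for rod and cone differentiation, was broadly expressed and stood at 1003 against 903 CPM at E14 and at 1056 against 846 CPM at E16. Every one of these ratios was nearer to 1 at E16, apart from that of *Rorb*. The ratios are to all other kept cells. Cells of the same clusters that the rule did not select are given after the gene lists.

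Of 16 such regulators, 12 reached the level asked for at E14 (a mean of both groups of 20 CPM) and none was lower by 2-fold. The log2 ratios ran from -0.58 to 4.82 with a median of 3.28, against 0.03 over all genes at that level. At E16, 13 reached the level, with ratios from -0.47 to 1.67 and a median of 0.87 against 0.06 over all. *Samd7* was at 0 in both libraries. Across all genes at that level, 401 of 6203 (6.46%) were higher by 2-fold at E14 and 301 (4.85%) were lower, and 59 of 5635 (1.05%) were higher and 127 (2.25%) lower at E16. These counts move with the rule. With fewer than 4000 genes per cell, 171 of 5807 were higher and 459 lower at E16, and without the excluding genes 127 and 63 at E14 and 128 and 641 at E16. The contrast of selected with other cells is the one that the rule used, so these counts describe the selected cells and carry no test. The 46 genes higher in both libraries made up 11.5% of the higher genes at E14 and 78.0% at E16. The 18 genes lower in both made up 6.0% of the lower genes at E14 and 14.2% at E16.

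**Figure D2:**
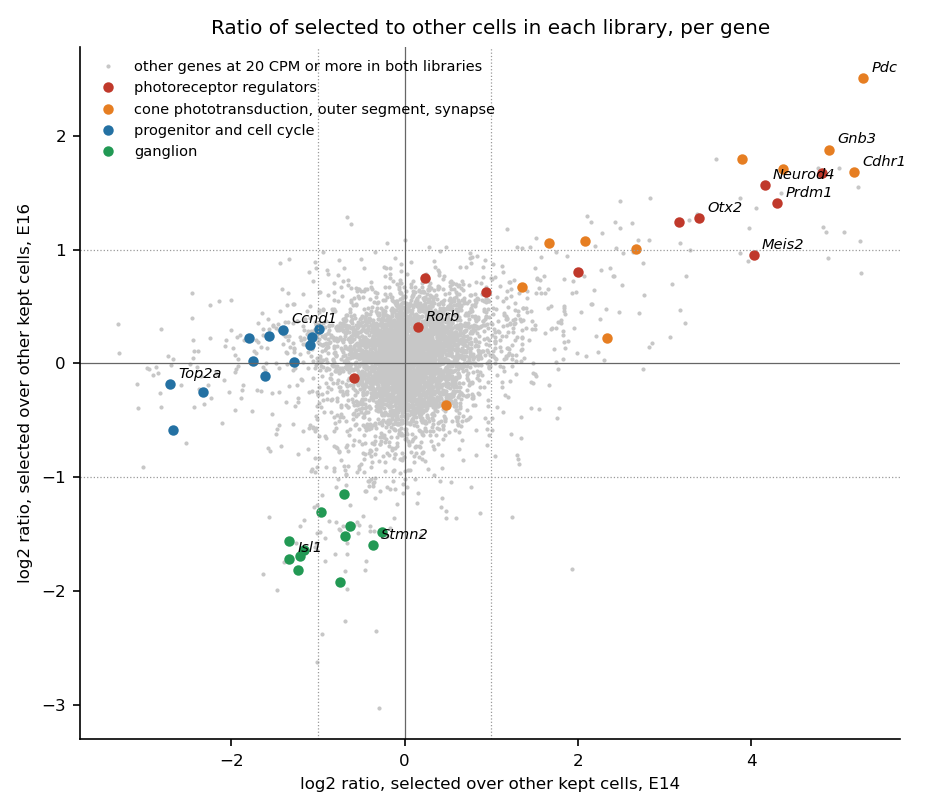
Each point is 1 gene at a mean of 20 CPM or more in both libraries, with the log2 ratio of selected to other kept cells at E14 (x axis) and at E16 (y axis), and dotted lines mark 2-fold. Photoreceptor genes (red and orange) lie at the upper right with larger values on the E14 axis, progenitor genes (blue) lie below 0 on the E14 axis and around 0 on the E16 axis, and ganglion genes (green) lie lowest on the E16 axis.

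The leading genes outside the rule, ranked by the lower of the E14 and E16 ratios, were *Pdc*, *Kcnab1*, *Gulo*, *Gnb3*, *Mak*, *Slitrk6*, *Arhgap31*, *Tulp1*, *Smim40*, *Fabp7*, *Cplx3*, *Cdhr1*, *Lhx4*, *Egflam* and *Rbp4*. The ranking asked for at least 20 UMIs in the selected cells of each library and not for a mean of 20 CPM. At E16 *Kcnab1*, *Gulo*, *Mak* and *Rbp4* were under that mean, so their E16 ratios rest on few UMIs. Several of the leading genes belong to the photoreceptor itself. *Pdc* (phosducin, which binds transducin beta-gamma, chr1:150319417-150333906) was at 341 against 8.72 CPM at E14 (log2 ratio 5.29, 5.13 to 5.45) and at 85.3 against 15 CPM at E16 (2.51, 2.15 to 2.84). *Gnb3*, the beta subunit of cone transducin, was at 129 against 4.34 CPM and at 162 against 44.1 CPM. *Mak*, a kinase of the photoreceptor cilium, was at 50.2 against 1.81 CPM and at 22.3 against 6.1 CPM. *Pdc* was thus lower in the E16 than in the E14 selected cells, whereas *Gnb3* was not lower.

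Others have general roles. *Kcnab1*, a beta subunit of voltage-gated potassium channels, was at 78.0 against 4.44 CPM at E14 and at 25.4 against 5.34 CPM at E16. *Gulo*, the last enzyme of vitamin C synthesis, was at 46.1 against 2.81 CPM and at 20.3 against 4.74 CPM. *Fabp7*, a fatty acid binding protein best known from glia and neural progenitors, was at 503 against 18.5 CPM and at 384 against 117 CPM. *Rbp4*, a retinol carrier, was at 165 against 5.24 CPM and at 28.4 against 9.01 CPM. *Fabp7* was found in 42.9% of the E14 and 62.0% of the E16 selected cells, and *Gulo* in 15.3% and 18.0%.

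The promoters of the first 3 leading genes with a sequence are shown because these genes led the ranking, although *Kcnab1* and *Mak* were under a mean of 20 CPM at E16. *Crx* and *Otx2* bind TAATCC, and the bHLH factors *Neurod1* and *Neurod4* bind the E-box CANNTG. The sequences are those of RefSeq on GRCm38.p6, from 250 bases before to 50 after the first listed start, in the direction of the gene. Capitals mark CANNTG, which reads the same on both strands as a pattern. *Pdc* lies on the plus strand at chr1:150319167-150319466, *Kcnab1* on the plus strand at chr3:64948962-64949261 (the first of 3 listed starts, upstream of the GENCODE gene) and *Mak* on the minus strand at chr13:41079657-41079956 (the first of 2 listed starts).
Pdc: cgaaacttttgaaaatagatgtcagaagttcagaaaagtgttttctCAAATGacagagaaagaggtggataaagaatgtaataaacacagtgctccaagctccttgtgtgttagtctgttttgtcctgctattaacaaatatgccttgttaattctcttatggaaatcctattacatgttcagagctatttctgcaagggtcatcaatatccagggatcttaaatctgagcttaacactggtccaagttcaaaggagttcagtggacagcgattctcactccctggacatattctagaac
Kcnab1: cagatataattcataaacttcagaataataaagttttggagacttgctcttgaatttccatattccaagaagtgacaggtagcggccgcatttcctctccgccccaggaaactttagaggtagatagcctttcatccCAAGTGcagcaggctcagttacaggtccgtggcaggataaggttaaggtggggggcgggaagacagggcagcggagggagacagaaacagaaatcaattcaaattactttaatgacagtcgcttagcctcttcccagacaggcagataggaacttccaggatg
Mak: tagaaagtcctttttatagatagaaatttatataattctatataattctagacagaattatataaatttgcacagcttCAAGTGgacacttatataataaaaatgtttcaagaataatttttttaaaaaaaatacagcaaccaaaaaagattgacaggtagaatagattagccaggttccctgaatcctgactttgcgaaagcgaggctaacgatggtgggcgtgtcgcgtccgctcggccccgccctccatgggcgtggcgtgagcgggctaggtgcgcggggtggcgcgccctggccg

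Each of the 3 promoters held 1 match of CANNTG and none of TAATCC on either strand, and the matches of the motifs did not overlap. Of 15 leading genes, 11 had a promoter in the table, 8 of these held CANNTG and 0 held TAATCC. Over 27025 promoters of the same length, 72.1% held CANNTG and 7.16% held TAATCC. A match is a description of letters in the window, and no match says only that these letters are not in it.

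The machinery of light detection was present in part. Of 12 cone phototransduction genes outside the rule, only *Pdc* and *Gnb3* reached 20 CPM, and both were higher by 2-fold in each library. *Pde6c*, the catalytic subunit of cone phosphodiesterase, had 31 UMIs in the E14 cells (21 CPM against 0.693) and 10 UMIs in the E16 cells (10.2 CPM against 5.15). *Arr3* (cone arrestin) had 1 UMI in each library. No UMI of *Opn1mw* (the medium-wavelength opsin), *Gucy2e* or *Rcvrn* was found in either, which by a limit of 3 counts allows up to 2.03 CPM at E14 and 3.05 CPM at E16. *Guca1a* was at 0 at E14 and had 2 UMIs at E16.

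Of 14 listed genes of the outer segment and cilium, all 6 that reached 20 CPM were higher by 2-fold in each library, with medians of 3.29 at E14 and 1.24 at E16. At E16 the count was 3 of 8 with cells thinned to 2000 UMIs (median 0.93) and 3 of 4 when the rule was applied with no excluding genes. *Cdhr1*, a cadherin of nascent discs, was at 95.6 against 2.62 CPM at E14 and at 53.8 against 16.8 CPM at E16. *Tulp1*, which takes part in transport to the outer segment, was at 92.9 against 6.24 CPM and at 82.3 against 23.7 CPM. *Unc119*, a lipid-binding chaperone of transducin, was at 503 against 78.7 CPM and at 257 against 128 CPM. *Prom1*, a membrane protein of disc formation, was at 73.3 against 23.0 CPM and at 51.8 against 24.9 CPM. *Prph2* and *Rp1* were at 0 at E14, and *Impg1* was at 0 in both libraries.

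Of 12 ribbon synapse genes, 5 reached 20 CPM at E14 and 4 were higher by 2-fold. They were *Cplx3* (complexin of ribbon synapses, 153 against 7.41 CPM), *Pclo* (140 against 27.8 CPM), *Ctbp2* (the gene of the ribbon protein Ribeye, 153 against 60.1 CPM) and *Rims2* (66.5 against 31.7 CPM). At E16, 4 reached 20 CPM and *Cplx3* alone was higher by 2-fold (76.2 against 23.2 CPM), while *Rims2* was at 4.06 against 7.24 CPM. Without the excluding genes, 2 of 5 were higher at E14, and 1 of 4 was higher and 1 lower at E16, with a median of -0.34.

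Of 13 rod genes, *Gnb1* and *Reep6* reached 20 CPM at E14, of which *Reep6* was higher by 2-fold, and *Gnb1* alone did at E16 (369 against 478 CPM). *Nrl*, the factor that sets the rod fate, was at 19.0 against 0.824 CPM at E14, in 6.84% of the selected cells, and at 10.2 against 4.08 CPM at E16, in 8 of the 100 cells. *Reep6* was at 46.8 against 3.19 CPM at E14 and 5.08 against 2.59 CPM at E16. *Gngt1*, the gamma subunit of rod transducin, was at 21.7 against 0.613 CPM and at 12.2 against 4.77 CPM. *Pde6b*, *Cnga1*, *Cngb1* and *Esrrb* were at 0 in the selected cells of both libraries, *Gnat1* at E14 only and *Pde6a* at E16 only. *Nr2e3*, the rod gene that the rule excludes, was found in 0 of the 693 E14 cells that met the cone part and in 14 of 866 at E16. This part of the rule thus removed no cell at E14. Whether the selected cells include rod precursors was not tested.

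**Figure D3:**
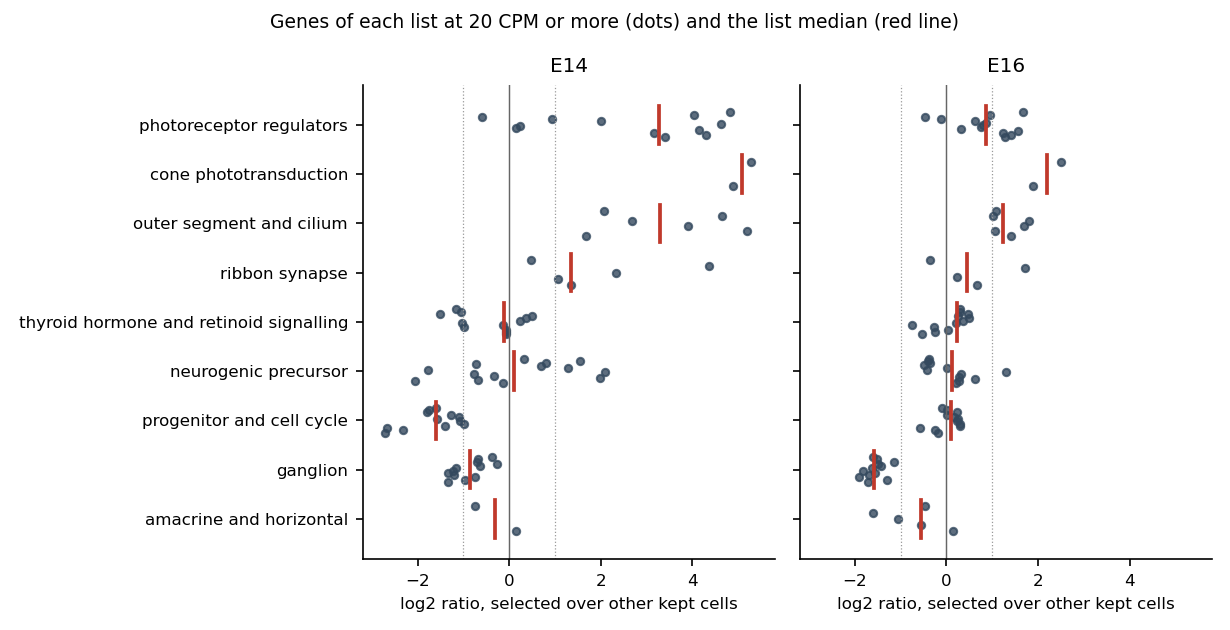
Log2 ratio of selected to other kept cells (x axis) for each listed gene at a mean of 20 CPM or more (dots) and the median of the list (red line), at E14 (left) and E16 (right), with dotted lines at 2-fold. The list of progenitor and cell cycle genes has a median of -1.59 at E14 and of 0.09 at E16.

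Genes of thyroid hormone and retinoid signalling were in part lower at E14. Of 18 listed genes besides *Thrb* and *Rxrg*, 12 reached 20 CPM in each library, and none was higher by 2-fold. *Thra*, the alpha receptor, was at 88.9 against 92.9 CPM at E14 and 199 against 288 CPM at E16. At E14, 4 genes were lower by 2-fold. They were the retinoic acid synthesis enzymes *Aldh1a1* (42.1 against 119 CPM) and *Aldh1a3* (31.9 against 65.6 CPM), the retinoic acid degrading enzyme *Cyp26a1* (14.9 against 33.4 CPM) and the thyroid hormone inactivating deiodinase *Dio3* (18.3 against 37.5 CPM). None of the 12 was lower by 2-fold at E16, nor at E14 with no excluding genes. With no excluding genes at E16, 13 reached the level, and 2 were higher and 2 lower. For cells with fewer than 4000 genes, 1 was higher and 1 lower at E16. Without called doublets, 1 was higher and 5 lower at E14. The activating deiodinase *Dio2* was at 0 in both libraries.

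Neurogenic precursor genes were mixed. Of 17 listed genes, 14 reached 20 CPM at E14, 4 were higher by 2-fold and 2 lower. The higher genes were *Btg2*, an antiproliferative gene of cells leaving the cycle (536 against 125 CPM), the Notch ligand *Dll3* (80.0 against 20.2 CPM), *Onecut2* (470 against 161 CPM) and *Insm1*, a zinc finger factor of newborn neurons (154 against 63.2 CPM). The lower genes were *Neurog2* (25.8 against 108 CPM) and *Foxn4* (13.6 against 46.0 CPM), both of cycling neurogenic progenitors. At E16, 12 reached the level and only *Btg2* was higher by 2-fold (340 against 138 CPM). With no excluding genes, 3 were higher and none lower at E14, and 3 were higher and 1 lower at E16. With at least 4 rule genes, 4 were higher and 5 lower at E14. In the selected cells of the main E14 cluster (given after the gene lists), 5 were higher and 4 lower. *Atoh7*, the bHLH factor of ganglion cell competence, was at 988 against 1077 CPM at E14 and was found in 74.0% of the selected cells against 50.8% of others. At E16 *Atoh7* was at 8.13 against 4.93 CPM, so it was lower in selected and other cells alike.

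Progenitor and cell cycle genes stood differently in the 2 libraries, although the rule bears on them by asking for 0 UMIs of *Mki67*. At E14, 11 of 12 listed genes were lower by 2-fold in the selected cells, with a median log2 ratio of -1.59. *Top2a*, a topoisomerase of dividing cells, was at 109 against 714 CPM at E14. The cyclin *Ccnd1* was at 960 against 2535 CPM. At E16 none of the 12 was lower or higher by 2-fold, and the median was 0.09. *Top2a* was at 300 against 340 CPM at E16 and was found in 70.0% of the selected cells (60.0% to 78.8%) against 53.2% of others (51.3% to 55.1%), and *Ccnd1* was at 1845 against 1502 CPM. With no excluding genes, none of the 12 was lower at E14 (median -0.21), and at E16 none was lower and 5 were higher (median 0.88). The E16 values went against the label of cone precursors, since the selected cells carried progenitor and division genes at levels within 2-fold of their library although *Mki67* was at 0 by rule. At E14 the low values are no check of the label, since the rule bears on them. In the selected cells of the main cluster of each library (the clusters are given after the gene lists, a setting added after seeing the data), all 12 genes were lower by 2-fold at E14, with a median of -2.90, and 1 of 12 at E16, with a median of -0.13.

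Lists of the other neurons summed to lower levels in the selected cells, and those of cells from outside the neural retina were low in level, in part above the other kept cells. The rule bears on the ganglion, amacrine and horizontal genes by asking for 0 UMIs of *Pou4f2* and *Tfap2b*. Their main values are thus no check of the label. Of 12 ganglion genes, 5 were lower by 2-fold at E14 (median -0.85) and all 12 at E16 (median -1.58), with *Sncg* at 310 against 713 CPM and at 438 against 1411 CPM. The E14 count was 9 of 11 without called doublets, with fewer than 4000 genes per cell or in the main cluster alone, and 11 of 11 without the excluding genes, while at E16 it was 12 of 12 in each. The 12 genes summed to 2987 CPM in the selected cells at E14 (2900 to 3077) against 5390 CPM in others, and to 2045 CPM (1957 to 2137) against 6212 CPM at E16. None of the 12 was at 0. Of 10 amacrine and horizontal genes, *Calb1* and *Gad1* were at 0 in both libraries, and the list summed to 357 against 588 CPM and 622 against 903 CPM. Of the bipolar genes, *Vsx1* and *Grm6* were at 0 in both libraries, *Bhlhe23* also at E16, and *Isl1*, which ganglion cells share, made up most of the sum (95 against 236 CPM and 64.0 against 206 CPM). Pigment epithelium genes summed to 8.14 against 9.02 CPM at E14 and 1.02 against 1.45 CPM at E16. Microglia genes summed to 8.82 against 8.46 CPM and 7.11 against 4.68 CPM, lens genes to 1.36 against 2.26 CPM and 0 against 0.348 CPM, and astrocyte genes to 0.678 against 4.34 CPM and 2.03 against 5.79 CPM. *Rpe65*, *Tyr*, *Cryaa*, *Cx3cr1* and *Pdgfra* were at 0 in the selected cells of both libraries. The 4 globin genes summed to 15.6 against 486 CPM at E14 and 3.05 against 3.57 CPM at E16, and the 3 vascular genes, which include *Kdr*, to 33.9 against 57.8 CPM at E14 and 117 against 105 CPM at E16, where *Kdr* was at 110 against 88.4 CPM. Of 7 immediate early genes, which dissociation can raise, *Jun* alone was higher by 2-fold at E14 (294 against 130 CPM) and none was at E16. With no excluding genes none was higher by 2-fold at E14 (highest log2 ratio 0.89).

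The 10 genes lowest in the selected cells of both libraries were *Igfbpl1*, *Nefl*, *Isl1*, *S100a10*, *Nefm*, *Sncg*, *Pcsk1n*, *Gap43*, *Mapt* and *Kif5c*, and 5 of them are on the ganglion list. The exclusion of cells with *Pou4f2* bears on such genes. *Igfbpl1* was at 68.5 against 213 CPM at E14 (log2 ratio -1.64, -1.93 to -1.36) and at 50.8 against 183 CPM at E16 (-1.85, -2.28 to -1.45). *Nefl*, the light neurofilament, was at 225 against 567 CPM and at 150 against 444 CPM. *Gap43*, a growth cone protein, was at 480 against 1069 CPM and at 411 against 1278 CPM.

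When all kept cells were clustered without the 12 rule genes, the selected cells gathered in 1 cluster of each library. At E14, cluster 12 of 28 held 295 of the 380 (77.6%, 73.1% to 81.7%), which were 59.8% of its 493 cells. Its leading genes outside the rule were *Fabp7*, *Meis2*, *Neurod4*, *Pdc*, *Prdm1*, *Lypd1*, *Otx2* and *Neurod1*. The next 47 lay in cluster 10, where 73.4% of the cells were called as doublets and the median depth was 9533 UMIs. Of all E14 selected cells, 32 (8.42%) were called as doublets, against 13.1% of all kept cells. At E16, cluster 3 of 16 held 55 of the 100 (55.0%, 44.7% to 65.0%), which were 20.2% of its 272 cells (at a resolution of 0.5, 60 cells or 10.1% of 595), and it was led by *Fabp7*, *Neurod4*, *Ankrd33b*, *Pik3r1*, *Neurod1* and *Otx2*. A further 16 lay in cluster 4, led by the mitotic genes *Cenpf*, *Ube2c*, *Cdc20* and *Ccnb1*. Of the E16 selected cells, 4 (4%) were called as doublets, against 2.62% of all kept cells.

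The selected cells inside and outside these clusters differed in what else they held. At E14 the 295 cells inside had *Otx2* at 1272 CPM, *Ccnd1* at 289 CPM and *Sncg* at 86.1 CPM. The 85 outside had *Otx2* at 539 CPM, *Ccnd1* at 1929 CPM and *Sncg* at 633 CPM, at a median of 6498 against 2633 UMIs. At E16 the 55 inside had *Otx2* at 606 CPM, *Sncg* at 56.4 CPM and *Ccnd1* at 1747 CPM, and the 45 outside had 324, 826 and 1945 CPM. Ganglion RNA was thus low inside the E16 cluster, whereas *Ccnd1* was not. *Opn1sw* was no higher inside the E16 cluster (62.4 CPM, 42.4 to 88.6) than outside it (75.8 CPM, 53.4 to 104.5). *Pde6h* was at 14.1 CPM inside and 22.5 CPM outside. The cells of E14 cluster 12 that the rule did not select had *Otx2* at 1189 CPM, against 1272 CPM in those it did. *Prdm1* was at 479 against 543 CPM, *Neurod1* at 1489 against 1533 CPM and *Neurod4* at 662 against 710 CPM. *Gnb3* was at 161 against 171 CPM, and *Pdc* at 274 against 464 CPM. High levels of these regulators were thus not particular to the selected cells of the cluster. Rule genes, whose levels the selection itself decides, were lower in the cells not selected. *Thrb* was at 509 against 851 CPM, *Rxrg* at 33.2 against 181 CPM and *Cngb3* at 66.4 against 207 CPM. The cells not selected had *Atoh7* at 2077 against 1240 CPM and *Isl1* at 179 against 63.2 CPM.

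**Figure D4:**
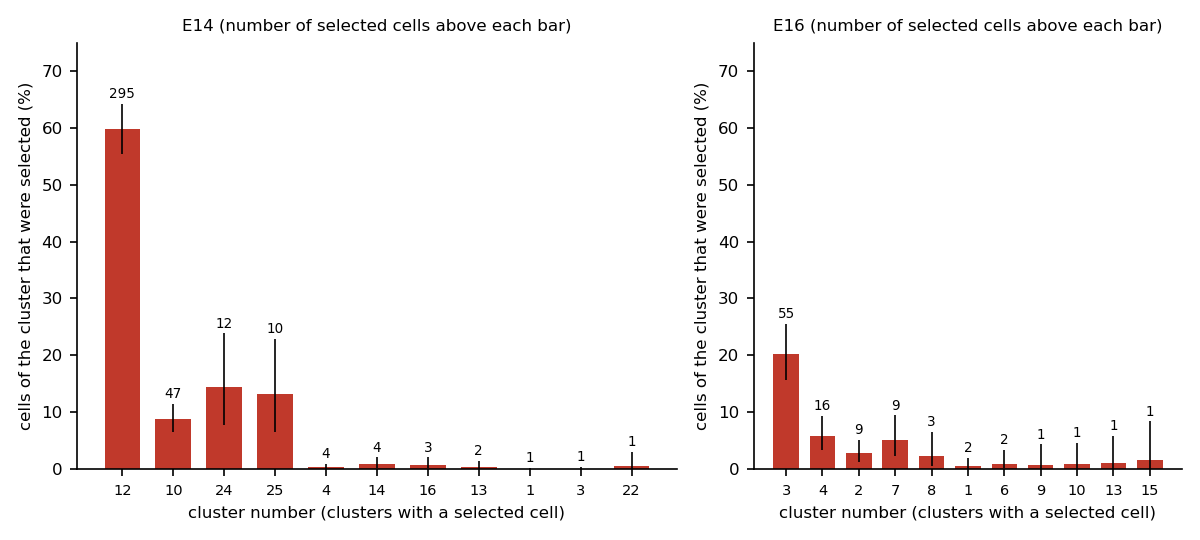
Percentage of each cluster's cells that were selected (y axis, bars with exact 95% intervals) for every cluster with a selected cell, at E14 (left) and E16 (right), with the number of selected cells above each bar. Cluster 12 of E14 holds 295 and cluster 3 of E16 holds 55.

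Between the E14 and E16 selected cells, 151 of 6057 genes (2.49%) were higher at E16 by 2-fold or more both in level and beyond the ratio in the other kept cells, and 258 (4.26%) were lower. The 8 genes furthest above their E14 level by the smaller of both ratios were *Gli3*, *Nr2e1*, *Cenpe*, *Sgo1*, *Knstrn*, *Neurog2*, *Birc5* and *Fgf3*. *Gli3*, the Hedgehog pathway factor, was at 4.75 CPM at E14 and 35.6 CPM at E16 (log2 ratio 2.90, 1.71 to 4.32). *Nr2e1* (Tlx), a nuclear receptor of progenitors, was at 13.6 and 88.4 CPM. *Cenpe*, *Sgo1*, *Knstrn* and *Birc5* act on chromosomes in mitosis, and *Birc5* was at 49.5 and 215 CPM. In the other kept cells, the 7 besides *Cenpe* moved by less than 1.2-fold between the libraries, and *Cenpe* was 2.16-fold lower at E16. In the E16 selected cells these 8 genes had log2 ratios to the other kept cells from -0.03 (*Birc5*) to 0.57 (*Gli3*). With no excluding genes, 37 genes in place of 151 were higher at E16, and the log2 ratios of E16 to E14 of these 8 ran from -0.46 (*Cenpe*) to 0.96 (*Neurog2*), all under 2-fold.

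The 8 genes furthest below it were *Lrp1b*, *Csmd2*, *Pcp4*, *Samd11*, *Klf4*, *Lypd1*, *Slc17a6* and *Gsg1*. *Lypd1*, a modulator of nicotinic receptors, was at 258 CPM in the E14 selected cells against 8.26 CPM in others, and at 24.4 against 11.5 CPM at E16. *Samd11*, a sterile alpha motif protein of photoreceptors, was at 139 against 5.60 CPM and at 8.13 against 6.26 CPM. *Slc17a6*, the vesicular glutamate transporter VGLUT2, was at 116 against 12.6 CPM and at 13.2 against 20.2 CPM. *Klf4* was at 76.0 against 4.72 CPM and had 2 UMIs in the E16 cells (2.03 CPM). *Lrp1b* was at 148 against 9.46 CPM and at 7.11 against 23.5 CPM. At E14 the log2 ratios of selected to other cells ran from 3.2 (*Slc17a6*) to 5.03 (*Gsg1*), and at E16 *Lypd1* alone was higher by 2-fold with an interval above 0 (1.08, 0.42 to 1.68), while *Gsg1*, at 2 UMIs, had a ratio of 2.00 (-1.16 to 4.09).

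**Figure D5:**
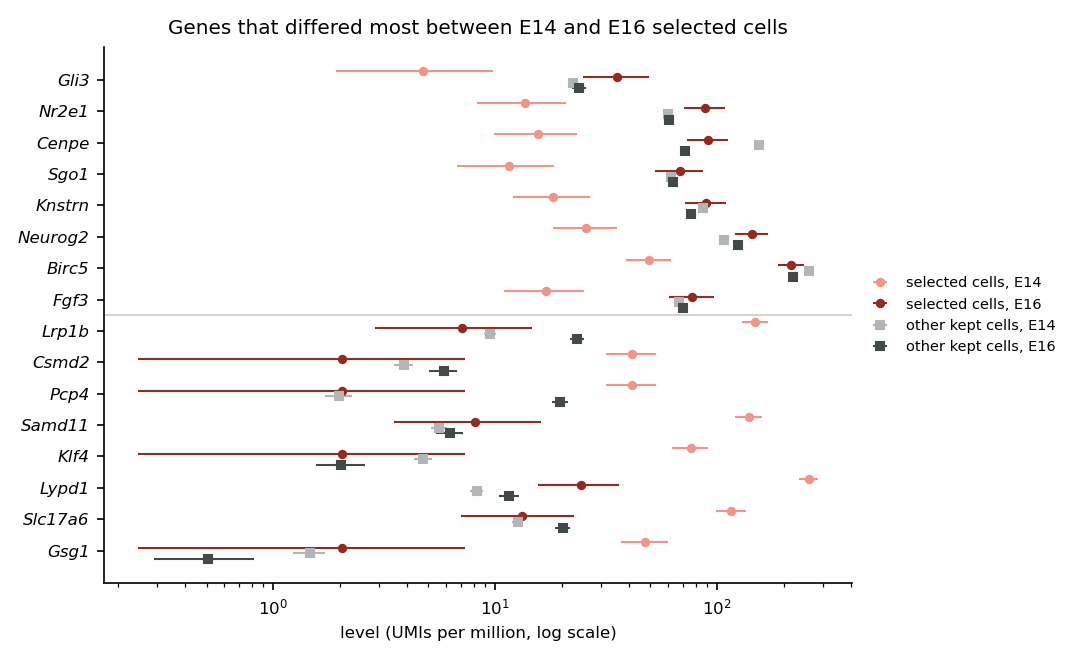
Level in CPM (x axis, log scale) of the 8 genes furthest above (upper) and furthest below (lower) their E14 level in the E16 selected cells, for selected cells (circles, light red E14, dark red E16) and other kept cells (squares, light gray E14, dark gray E16), with exact 95% intervals. The light red circles stand apart from the other 3 points of nearly every gene, on the left for the upper genes and on the right for the lower genes.

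The same rule applied after birth took 338 of 10407 cells at P0, 223 of 12303 and 34 of 3113 in the P3 replicates and 227 of 13600 at P6. In these, *Gngt2* was at 4528 CPM at P0, 5024 and 1295 CPM in P3 replicates 1 and 2, and 2349 CPM at P6, against 1011 CPM at E14. P3 replicate 2 was close to the E14 level and below its own other kept cells (1384 CPM). *Opn1sw* was at 637, 1389, 439 and 420 CPM in the same order, against 69.1 CPM at E16. *Thrb* was at 294, 202, 32.9 and 83.5 CPM, against 626 CPM at E14 and 189 CPM at E16. *Rcvrn* (recoverin), at 0 before birth, was at 70.6, 829, 60.3 and 317 CPM. A few cells carried the *Opn1sw*, *Rcvrn* and *Thrb* values at P6. There the 25 of 227 cells with 5 or more rule genes held 376 of 412 *Opn1sw*, 302 of 311 *Rcvrn* and 73 of 82 *Thrb* UMIs. Of the *Gngt2* UMIs they held 933 of 2307. In P3 replicate 1 the 70 of 223 such cells held 1095 of 1134 *Opn1sw*, 656 of 677 *Rcvrn* and 156 of 165 *Thrb* UMIs. In cells with 5 or more rule genes, *Opn1sw* was at 1008, 3531, 1165 and 2605 CPM at P0, P3 replicates 1 and 2, and P6, and *Thrb* at 430, 503, 104 and 506 CPM. In such cells before birth, *Opn1sw* had 0 UMIs at E14 and was at 139 CPM at E16, and *Thrb* was at 854 and 188 CPM. The later cells are not all of 1 kind, since *Sncg*, of ganglion cells, stood at 1009 CPM in those of P3 replicate 2.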

How the data were processed

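Single cells were profiled on the 10x Genomics platform, with 1 library each at E14 and E16. UMI counts, not normalized, were deposited by the authors as Cell Ranger matrices of genes by barcodes on mm10 (per the submitters' notes). The file headers name version 6.1.2 for E14, and for E16 it is not given in the sources used here. The E14 library held 107793173 UMIs in 15928 barcodes and the E16 library 43889333 in 2973. The total number of UMIs limits the precision, and UMIs and cells of 1 library are not replicates.

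Kept barcodes had 300 to 6000 genes and no more than 15% of their UMIs from mitochondrial genes. UMIs were summed over selected and over other kept cells, joined by Ensembl identifier and divided by all UMIs of the group (CPM). A gene was called at 2-fold where the mean of both groups was at least 20 CPM, the rule genes left out. A count of 0 was set to a limit of 3 counts. Shares have Clopper-Pearson intervals, levels Poisson intervals and ratios conditional exact intervals. Clusters (2000 variable genes, 30 principal components, 15 neighbours, leiden resolution 1) and Scrublet scores, called at 0.8% per 1000 cells, used Python 3.11.15, scanpy 1.11.5, leidenalg 0.10.2, scikit-learn 1.9.0, numpy 2.4.6, scipy 1.17.1 and pandas 2.3.3, and figures matplotlib 3.10.9. Doublets were kept in the main values. The arithmetic was run on simulated pooled counts with Poisson error alone and 200 genes changed by more than the 2-fold of the call. In each library 173 were recovered and 1 unchanged gene was called. The other 27 changed genes fell under the minimum level. The simulation held no spread between cells, no doublets and no selection. It therefore checks the computation and not how reliable the 2-fold calls are.

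The selected cells, the lists and the comparisons were chosen with earlier results of these data known. The named genes are the rule and list genes, the 15 highest outside the rule by the lower ratio of both libraries (at least 20 UMIs in the selected cells of each), the 10 lowest by the higher ratio (at least 100 CPM in other cells), and the 8 higher and 8 lower between the ages by the smaller ratio (at least 20 UMIs in the higher library). Cluster genes were chosen with their values in view. Some genes of the lists are not reported here by name. Gene positions are from GENCODE vM21 (GRCm38). Alternatives changed the upper limit of genes per cell, the depth, the number and kind of rule genes, the excluding genes, the minimum level, the averaging, the clustering resolution and the called doublets.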

Additional observations from a re-analysis of the deposited data

Results flagged for a closer look

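Among named genes at the minimum level in both libraries, 6 reported here had a ratio of selected to other cells on opposite sides of 1 at E14 and E16, each beyond its counting interval and by 2-fold or more in 1 library. With 1 library per age the difference was not tested. *Ccnd1* was at a log2 ratio of -1.40 at E14 and 0.30 at E16 (a difference of 1.70) and *Hes5* at -1.80 and 0.22 (2.02). *Nr2e1* was at -2.14 and 0.55 (2.69), *Cenpe* at -3.31 and 0.35 (3.66) and *Kdr* at -1.02 and 0.31 (1.33). *Onecut2* stood the other way, at 1.55 and -0.40 (-1.95). For *Ccnd1* and *Kdr* the sides depended on the excluding genes of the rule. With none, *Ccnd1* was at 0.07 and 1.10 and *Kdr* at 0.10 and 1.27, above 0 in both libraries. *Hes5* (-0.59 and 1.19), *Nr2e1* (-0.23 and 0.98) and *Cenpe* (-0.26 and 1.01) stayed on opposite sides, with E14 ratios then under 2-fold. *Onecut2*, at 1.02 and -0.44, also stayed on opposite sides. The E16 side also turned for *Onecut2* with cells thinned to 2000 UMIs (0.13) and for *Cenpe* in the main cluster alone (-0.63).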

How the results depend on the processing

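Of the values that answer a comparison, 47 alternatives stayed within their limits (1.5 times a count, the counting interval of a share) and 39 did not. Keeping cells with fewer than 4000 genes gave 171 higher and 459 lower of 5807 genes at E16. With cells thinned to 2000 UMIs before the rule, 1.51% of E14 cells were selected and *Otx2* was found in 96.3% of the E16 cells. There 221 of 5650 genes were lower at E16 and 413 were lower between the ages. With 4 rule genes, 1.18% and 2.28% were selected, and of 5636 genes 108 were higher and 203 lower at E16. With no excluding genes, 4.46% of E14 and 31.9% of E16 cells were selected, *Otx2* was found in 96.5% at E16, 127 genes were higher and 63 lower at E14, 128 and 641 at E16, and 37 were higher between the ages. Selected cells of the main cluster alone, added after seeing the data, were 1.90% and 2.03% of kept cells, with 642 higher and 547 lower genes at E14, 134 and 284 at E16, and 267 and 546 between the ages. A minimum of 10 CPM gave 630 and 499, 146 and 249, and 273 and 476. It takes in more genes, so these counts cannot be set beside those at 20 CPM. The mean of each cell's own CPM gave 457 lower genes at E14, 134 higher and 369 lower at E16, and 236 and 405 between the ages. Counting *Otx2* after thinning gave 83.4% at E14 and 63.0% at E16. With no excluding genes, 3 values reversed, the E16 to E14 ratio of *Cenpe* (-0.46) and the E14 medians of the rod (-0.22) and vascular (0.10) lists, each of which then rested on 1 gene. Where a count is given without the number of genes at the level, it is not a share. The cause of these shifts was not tested.

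With Thrb or Gngt2 as the only anchors, without the called doublets, and at a clustering resolution of 0.5 (for the share of selected cells in the main cluster), the values that answer a comparison stayed within their limits. No paired analysis was possible because each embryonic age is 1 library. The E16 cells are 100, so by the limit of 3 counts a gene with no UMI there may reach 3.05 CPM.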
